A study of Mus musculus with 8 samples.

Results

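Mouse bone marrow cells sorted as CD11b+ F4/80+ Ly6G- GFP low VCAM1+ are described here by themselves, as 4 of the 8 libraries of their series. They were chosen by their label, the CD11b+ sort, and the other 4 libraries, the CD11b- sort, enter no comparison. The cells came from the femoral marrow of untreated C57BL/6 mice that carry the Csf1r-EGFP transgene, in which regulatory sequence of the Csf1r gene, the receptor for macrophage colony-stimulating factor, drives a green fluorescent protein. The design text calls the 4 libraries biological replicates, and the labels put the word macrophage in quotation marks, so the question here is which transcripts the sort holds. RNA of each sort was turned into a SmartSeq2 library, a full-length cDNA method for small RNA amounts. The sources used here do not state the age and sex of the mice, how many animals stand behind a library or how many cells were sorted.

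CD11b (Itgam) pairs with CD18 to form an integrin shared by neutrophils, eosinophils, monocytes and many macrophages. F4/80 (Adgre1) marks mouse macrophages and is also found on eosinophils, and VCAM1 is the adhesion molecule by which marrow macrophages hold erythroblasts. Granulocytes make their granule proteins in waves: promyelocytes make the proteases and myeloperoxidase of primary (azurophil) granules, myelocytes and metamyelocytes make the antimicrobial proteins of secondary (specific) granules, and gelatinase and chemokine receptors come last. Eosinophils fill their granules with cationic proteins and eosinophil peroxidase, and basophils with proteases of their own.

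Library totals ran from 36604660 to 47951234 counts, and 12695 to 13634 of the 18790 named genes had a count in a given library. A gene without a count in a library is limited to between 0.0627 and 0.0822 CPM (counts scaled to 1000000 a library) by a floor of 3 counts, which covers counting error only. No pair of libraries agreed within counting error (chi-square per degree of freedom 125 to 209), so none was a second copy of another. The median gene differed between 2 libraries by 0.28 to 0.37 on the log2 scale, least between replicates 2 and 3 and most between replicates 2 and 4. CPM is a share of the library's counts and is used here for one gene or list across libraries, and to say which genes or lists take most of the counts. Expression levels of different genes are compared per length, as counts per kilobase of exon scaled to a sum of 1000000. In bulk RNA, fewer cells of a type and less RNA per cell cannot be told apart.

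Transcripts of Itgam, Adgre1 and Vcam1, the genes of the gate's positive markers, of Csf1r and of the leukocyte antigen Ptprc (CD45) were present in every library. Itgam stood at 264, 305, 346 and 235 CPM in replicates 1 to 4 (287 ± 48.5, SD, n = 4). Adgre1 stood at 77.4, 70.1, 124 and 93.8 CPM. Vcam1 stood at 379, 398, 353 and 444 CPM, the steadiest of these 3. Csf1r stood at 65.8, 80.9, 97 and 97.7 CPM, and Ptprc at 244, 240, 265 and 263 CPM. Per length, the mean was 152 for Itgam, 118 for Vcam1, 74.6 for Adgre1, 39.1 for Csf1r and 36.7 for Ptprc. These places, from 927 for Itgam to 3296 for Ptprc in the order of all genes per length, lie far behind the granule genes that lead the libraries. The Ly6G transcript, which the gate selects against, is not analysed here.

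The labelled cell type, macrophage, was checked against 25 genes of tissue macrophages, of which 14 (56.0%) reached a mean of 10 CPM, against 40.8% of all named genes. Adgre1 and Vcam1, whose proteins the gate selected for, are among the 14, so they are no independent check of the label. Csf1r, whose reporter the gate read as GFP low, is also among the 14. Apoe, the lipid carrier apolipoprotein E, led them with 717, 578, 857 and 682 CPM and a mean per-length level of 879. C1qb, a chain of the complement component C1q, stood at 95.6, 64.4, 91.5 and 57.5 CPM. Slc40a1, the iron exporter ferroportin, stood at 387, 450, 379 and 323 CPM. Cd68, a lysosomal glycoprotein of macrophages, stood at 55.9, 57.0, 88.1 and 71.2 CPM and at 143 per length. The other 11 genes had means under 10 CPM. Among them the efferocytosis receptor Mertk had 0.197 to 8.11 CPM, the sialic acid receptor Siglec1 (CD169) 0 to 3.83, the haemoglobin scavenger receptor Cd163 1.74 to 4.13, the phosphatidylserine receptor Timd4 0 to 6.37 and the high-affinity Fc receptor Fcgr1 0 to 1.497. Mertk and Cd163 had counts in every library, and the complement receptor Vsig4 had 12 counts in replicate 2 and none in the other 3 libraries. The 25 genes summed to 1968, 1879, 2197 and 2014 CPM, or 0.201% ± 0.0134 of counts, and the median member had a per-length level of 8.78 against 2.47 for all named genes. Macrophage genes were thus measured, but the genes that lead the libraries are not of this list and go against the label, and the sort is called by its gate in what follows.

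Granule proteins of granulocytes led every library. The 58 measured genes of 5 lists (primary granule, secondary granule, late neutrophil, eosinophil, basophil and mast cell) held 15.8%, 16.9%, 18.0% and 18.3% of all counts in replicates 1 to 4 (17.2% ± 1.13, SD, n = 4). The promoters of 5 of these genes are shown because members of their lists shared the library in which they were highest or lowest: Mpo and Elane from the primary granule list, Epx and Prg3 from the eosinophil list and Ngp from the secondary granule list. Each run is the 250 bases before the start site in RefSeq's GRCm38.p6, read 5′ to 3′ on the gene's own strand, at chr11:87793534-87793783 (plus strand) for Mpo, chr10:79886062-79886311 (plus) for Elane, chr11:87875537-87875786 (minus) for Epx, chr2:84987965-84988214 (plus) for Prg3 and chr9:110419558-110419807 (plus) for Ngp. The files were made on another build, mm9, so these positions serve the sequences only. Capitals mark matches on either strand to 4 short motifs: GAGGAA (bound by PU.1), TTGCNNAA (C/EBP factors), GATAA (GATA factors) and TATAAA (the TATA box).
Mpo: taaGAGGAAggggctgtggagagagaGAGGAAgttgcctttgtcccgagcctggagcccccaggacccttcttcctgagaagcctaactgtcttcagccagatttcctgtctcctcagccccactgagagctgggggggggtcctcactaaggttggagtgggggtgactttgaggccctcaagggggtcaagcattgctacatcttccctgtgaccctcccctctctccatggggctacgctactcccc
Elane: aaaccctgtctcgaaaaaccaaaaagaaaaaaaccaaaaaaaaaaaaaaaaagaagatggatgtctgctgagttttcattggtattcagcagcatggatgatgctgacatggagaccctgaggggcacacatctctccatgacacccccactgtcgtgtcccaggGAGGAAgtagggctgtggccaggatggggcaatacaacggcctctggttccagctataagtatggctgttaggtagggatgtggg
Epx: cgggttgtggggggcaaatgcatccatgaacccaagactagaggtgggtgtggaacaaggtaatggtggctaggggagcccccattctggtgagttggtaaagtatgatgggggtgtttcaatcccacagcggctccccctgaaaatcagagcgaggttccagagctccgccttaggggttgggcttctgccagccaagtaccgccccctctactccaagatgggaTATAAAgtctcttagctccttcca
Prg3: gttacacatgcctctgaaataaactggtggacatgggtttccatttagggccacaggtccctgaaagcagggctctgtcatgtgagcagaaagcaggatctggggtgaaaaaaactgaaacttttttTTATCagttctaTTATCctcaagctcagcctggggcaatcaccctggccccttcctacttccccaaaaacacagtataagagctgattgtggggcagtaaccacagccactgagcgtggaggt
Ngp: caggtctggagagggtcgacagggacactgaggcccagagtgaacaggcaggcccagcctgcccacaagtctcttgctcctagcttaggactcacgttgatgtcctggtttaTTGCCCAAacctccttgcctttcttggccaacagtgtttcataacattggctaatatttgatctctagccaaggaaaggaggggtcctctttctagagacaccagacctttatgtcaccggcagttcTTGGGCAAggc
GAGGAA was found at 2 places in the Mpo window and at 1 in the Elane window, and 23.3% of the 32851 RefSeq promoter windows of this length hold it. The Ngp window holds 2 matches to TTGCNNAA, which 9.56% of windows hold. The Prg3 window holds 2 matches to GATAA, both on the other strand as TTATC, a motif of 22.6% of windows, and the Epx window holds TATAAA 24 to 19 bases before the start, a motif of 12.4% of windows. No 2 of the 4 motifs overlap in these windows, and a match is a stretch of letters, not a bound site.

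Ngp, which encodes neutrophilic granule protein, was the most abundant gene of replicates 1, 2 and 3 and the second of replicate 4, where Mpo, myeloperoxidase, was first. Ngp stood at 53239, 75512, 68858 and 53201 CPM and Mpo at 41491, 36520, 37582 and 54323 CPM. Actb, cytoplasmic beta-actin, was the third by mean share with 29801, 27474, 16691 and 11048 CPM, a 2.70-fold range. Elane, neutrophil elastase, stood at 20969, 18434, 17424 and 26893 CPM. Prg2, the eosinophil major basic protein, stood at 11237, 5020, 15273 and 11659 CPM. The 10 genes with the largest counts held 18.6% ± 0.411 of a library, the first 100 held 32.2% ± 0.243, and it took 465 to 479 genes to reach 50% of the counts.

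Length changed the order. Per length, Ngp stood first at 136383 ± 24820, followed by Elane at 56499 ± 11050, Prg2 at 34071 ± 12925, Mpo at 32933 ± 5978 and Actb at 21271 ± 9403. Elane, with 984 bases of exon, thus stood above Mpo, with 3424. S100a9 (16907), the cathelicidin Camp (16192) and S100a8 (14156), the latter with its partner S100a9 forming calprotectin, came next, then Arhgdib (10799), the ficolin Fcnb (8651) and lysozyme Lyz2 (8341). The basophil protease Prss34 (4574) was the thirteenth, ahead of haptoglobin Hp (3668) and of Nkg7 (3504). Mir682 reached the sixteenth place with 96.97 to 126 CPM over an annotated length of 96 bases, so its place rests on that length. The 10 leading genes per length took 34.8% ± 1.39 of the per-length total, against 18.6% of counts.

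**Figure D1:**
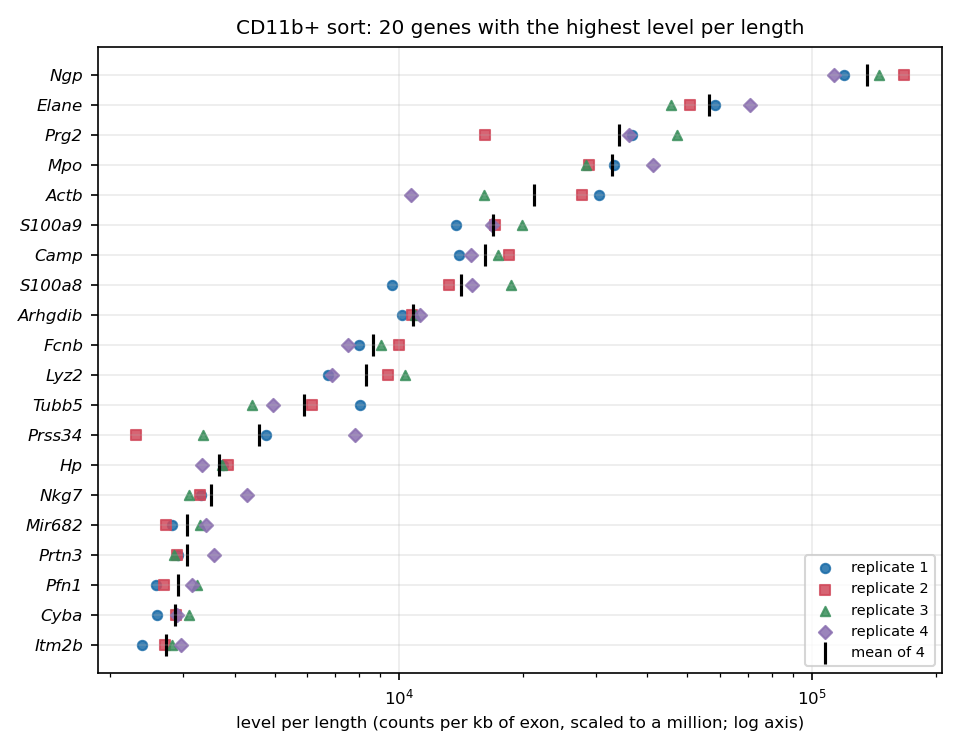
Level per length (counts per kilobase of exon scaled to a sum of 1000000, log axis) of the 20 genes with the highest mean, 1 symbol for each of the 4 CD11b+ libraries and a bar for their mean. Ngp leads at 136383 and Elane follows at 56499, while the 4 libraries lie farthest apart for Prg2, Actb and Prss34.

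Primary granule genes held 6.84% ± 1.31 of counts. All 10 had a count in at least 1 library, while 14.9% of all named genes had none. Of the 10, 9 reached 10 CPM, against 40.8% of all named genes. After Mpo and Elane came Prtn3, proteinase 3, with 1846, 1859, 1914 and 2376 CPM. Serpinb1a, an inhibitor of elastase, stood at 1011, 1149, 1364 and 1533 CPM. Ms4a3, a membrane protein of granulocyte-monocyte progenitors, stood at 1144, 988, 984 and 1415 CPM. Replicate 4 was the highest library for each of these 5 genes. Ctsg, cathepsin G, was much lower than its companion proteases, with 133, 138, 128 and 233 CPM and a per-length level of 406 ± 121 against 56499 for Elane. Bpi, the bactericidal permeability-increasing protein, had 20 counts in replicate 4 and none elsewhere. The median per-length level of the list was 930.

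Secondary granule genes held 7.82% ± 1.35 of counts, of which Ngp alone made most. Camp stood at 3859, 5172, 5094 and 4366 CPM. Ltf, the iron-binding lactoferrin, stood at 2431, 3957, 3696 and 2074 CPM. Cd177, a neutrophil surface glycoprotein, stood at 2192, 2559, 2389 and 1747 CPM. Replicates 2 and 3 were the 2 highest libraries for Ngp, Camp, Ltf and Cd177. Per length, Hp reached 3668 ± 223, Cd177 2082 ± 350, the chitinase-like Chil3 2325 ± 343 and Pglyrp1, which binds bacterial cell walls, 1594 ± 215. Lcn2, lipocalin 2, was lower at 323 ± 38.6 per length. The collagenase Mmp8 was an exception, with 9.80, 0, 18.3 and 4.55 CPM. The median per-length level of the 12 genes was 1838.

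Genes of band and segmented neutrophils were uneven. S100a8 stood at 2441, 3400, 5022 and 4007 CPM and S100a9 at 2622, 3306, 4023 and 3371 CPM, with replicate 3 the highest and replicate 1 the lowest for both. Csf3r, the receptor for G-CSF, stood at 465, 410, 376 and 305 CPM. Retnlg, a resistin-like protein, stood at 111, 75.1, 178 and 144 CPM, and Padi4, which citrullinates histones, at 196, 197, 278 and 127 CPM. The gelatinase Mmp9 had 9.26 to 25.7 CPM, the chemokine receptor Cxcr2 2.03 to 4.604, the formyl peptide receptor Fpr1 0.634 to 4.24 and the protease inhibitor Stfa2l1 17 counts in 1 library. Il1b had no count in any library. The list held 0.815% ± 0.170 of counts, and its median per-length level was 53.0, below those of both earlier granule lists.

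Eosinophil genes held 1.48% ± 0.575 of counts. Beside Prg2, Epx, the eosinophil peroxidase, stood at 2145, 1263, 2628 and 1917 CPM. Alox15, a lipoxygenase, stood at 654, 521, 1770 and 946 CPM. Prg3, a homologue of major basic protein, stood at 555, 259, 786 and 575 CPM. Replicate 2 was the lowest and replicate 3 the highest library for all 4. The eosinophil-associated ribonucleases Ear1 (167 ± 98.4 CPM), Ear2 (90.1 ± 39.6) and Ear6 (192 ± 117) passed 10 CPM, while Ear10 had 1 to 5 counts a library. These genes have near-identical copies among which reads may be split, so their single levels are uncertain. The interleukin-5 receptor Il5ra stood at 37.6, 20.04, 54.8 and 37.3 CPM, Siglecf at 42.6, 32.9, 40.3 and 38.4, and the eotaxin receptor Ccr3 at 19.96, 22.3, 17.0 and 12.1.

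Basophil and mast cell genes held 0.285% ± 0.124 of counts, most of them from Prss34 with 2123, 1042, 1587 and 3683 CPM. Mcpt8, another basophil protease, stood at 90.8, 55.9, 111 and 235 CPM. Cpa3, carboxypeptidase A3, stood at 35.6, 13.98, 32.5 and 61.2 CPM. Replicate 2 was the lowest and replicate 4 the highest library for these 3. Hdc, which makes histamine, was close to even at 521 ± 33.7 CPM. Fcer1a, the alpha chain of the IgE receptor, had 26.0 ± 6.61 CPM. The mast cell chymase Cma1 had 40 counts in replicate 4 alone, and the mast cell tryptase Tpsb2 had no count.

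Of 15 monocyte genes, 9 (60.0%) reached 10 CPM, against 40.8% of all named genes. Ly6c2, the antigen of inflammatory monocytes, stood at 256, 311, 358 and 427 CPM, with a near-identical neighbour that makes its level uncertain. The other 14 genes together summed to 344 ± 43.0 CPM. Ctss, the protease cathepsin S, stood at 38.2, 36.3, 71.1 and 46.0 CPM and at 93.2 per length. The chemokine receptor Ccr2 stood at 34.4, 44.4, 41.7 and 79.9 CPM and the coagulation factor F13a1 at 62.7, 48.0, 63.4 and 65.5 CPM. Of the 6 genes with a mean under 10 CPM, Klf4, a transcription factor of monocytes, had 0.295 to 1.70 CPM, Vcan, a matrix proteoglycan, 0 to 6.68, S100a4 0 to 0.714 and Cx3cr1, the fractalkine receptor, 0.137 to 11.2. The 15 genes summed to 683 ± 115 CPM, and their median per-length level was 7.57 against 2.47 for all named genes. That median is the level of Mpeg1, with 26.6 per length in replicate 2 and 0.872 to 1.58 in the others. Mpeg1 is among the 9 genes of at least 10 CPM through replicate 2 alone.

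**Figure D2:**
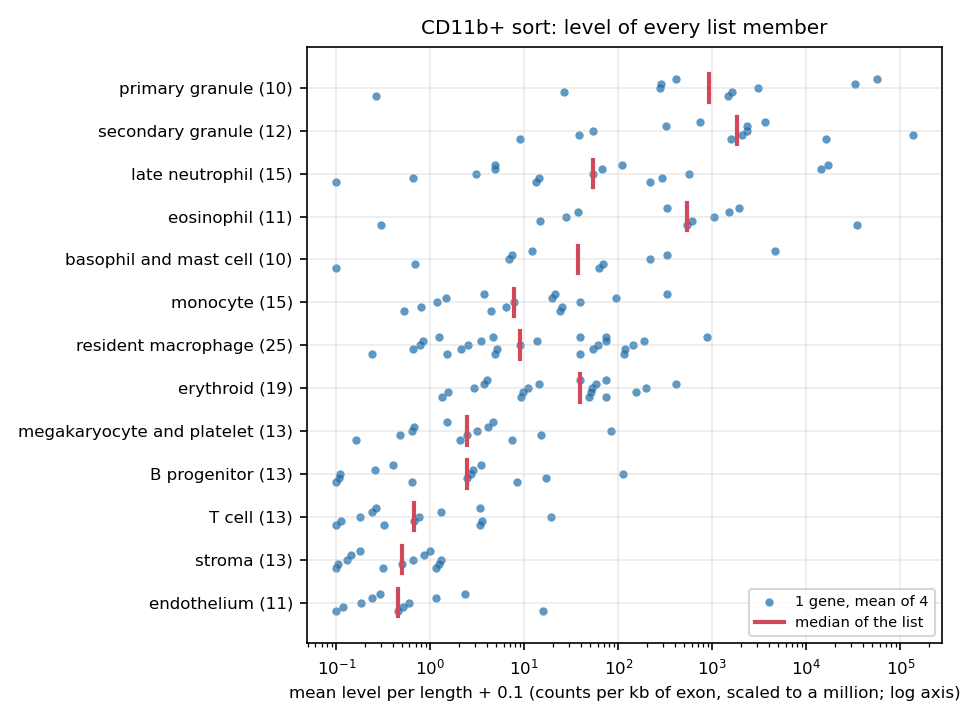
Mean per-length level of each measured gene (dots, 4 CD11b+ libraries, 0.1 added, log axis) in 13 lists, with the number of genes that have a length in brackets and the list's median as a bar. The medians of the primary granule (930), secondary granule (1838) and eosinophil (535) lists lie above those of the monocyte (7.57) and resident macrophage (8.78) lists, and those of T cell, stroma and endothelium genes lie under 1. The monocyte median is the level of Mpeg1, which rests on replicate 2. The eosinophil median is that of Ear6, whose near-identical copies make its level uncertain.

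Markers of other marrow lineages differed between lists. Of 19 erythroid genes, 13 (68.4%) reached 10 CPM, against 40.8% of all named genes. The list summed to 1416, 916, 855 and 1338 CPM. Car2, carbonic anhydrase 2, stood at 447, 271, 265 and 499 CPM. Rhd, the Rhesus blood group protein, stood at 181, 88.8, 72.4 and 126 CPM, and Alas2, the erythroid enzyme of haem synthesis, at 113, 106, 180 and 165 CPM. Replicates 1 and 4 were the 2 highest libraries for Car2 and Rhd, but replicates 3 and 4 for Alas2. Globins are not analysed here. Of 13 megakaryocyte and platelet genes, 2 (15.4%) reached 10 CPM, against 40.8% of all named genes, namely Pf4 (22.3 ± 12.6), platelet factor 4, and Itga2b (30.4 ± 9.08), the platelet integrin chain. Of 13 B progenitor genes, Cd79b alone reached it (59.6 ± 20.9). Of 13 T cell genes, Lck alone reached it, with 21.5, 3.45, 22.1 and 38.3 CPM, while Cd3e had counts in replicate 4 only. The natural killer list was carried by Nkg7, a granule membrane protein, at 1207 ± 202 CPM, while Ncr1 had 1.47 to 8.40 CPM. The plasma cell list was carried by Xbp1, a factor of secretory cells, at 520 ± 67.7 CPM. No stroma gene of 13 and 1 endothelial gene of 11, Pecam1 with 36.6 ± 12.6 CPM, reached 10 CPM. Whether these counts come from cells of these lineages or from RNA carried by other cells was not tested.

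**Figure D3:**
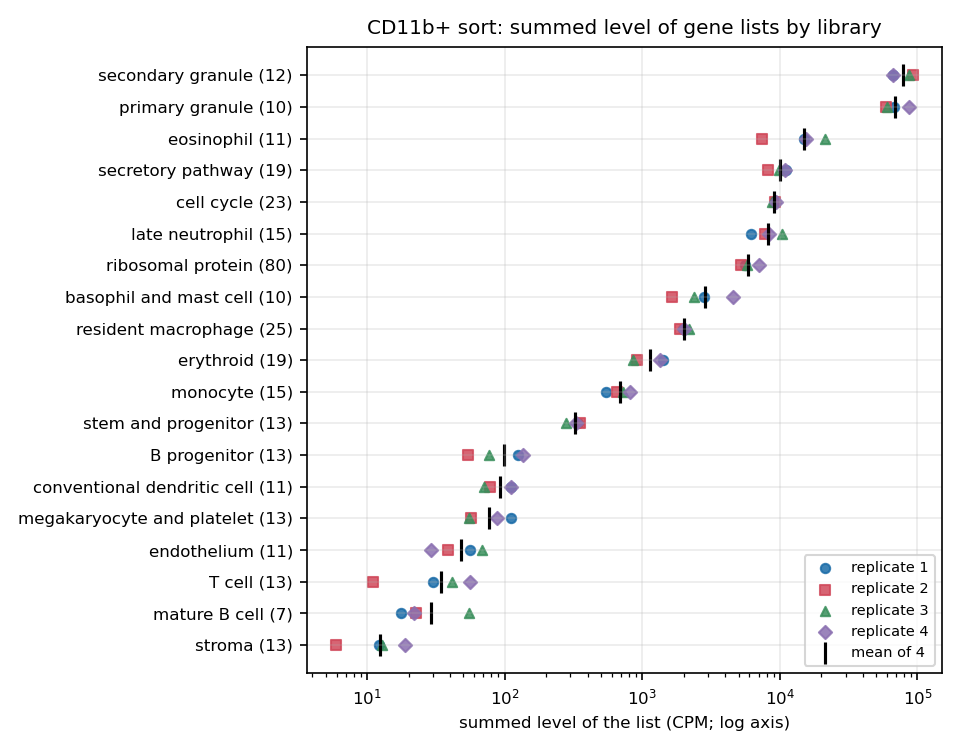
Summed level of 19 gene lists (CPM, log axis), 1 symbol for each of the 4 CD11b+ libraries and a bar for the mean, with the number of measured genes in brackets. The largest mean sums are 78184 CPM for secondary and 68427 CPM for primary granule genes, then 14845 CPM for eosinophil genes, with replicate 2 the lowest.

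Transcription factors and receptors of myeloid cells were present at levels that differed widely between genes. Cebpe, the C/EBP factor required for secondary granules, stood at 1104, 1038, 1299 and 1115 CPM and at 2436 ± 193 per length. Spi1 (PU.1) had 435 ± 36.3 per length, Cebpb 589 ± 61.1 and Gfi1, a repressor needed for neutrophils, 215 ± 36.3, whereas Cebpa, which acts at the entry to the lineage, had 16.8 ± 5.48 and Irf8, which favours monocytes, 6.25 ± 2.57. Of 17 factors of other lineages, 7 (41.2%) reached 10 CPM, about the 40.8% of all named genes. They were led by Nfe2 at 467 ± 67.0 per length, a factor of megakaryocytes and erythroid cells that is also made in granulocytes, and Klf1, an erythroid factor, at 73.2 ± 53.1. Of the growth factor receptors, Csf2ra (439 ± 43.9 per length), the alpha chain for GM-CSF, and Csf3r (287 ± 56.9) were the most abundant, and Kit, the stem cell factor receptor, had 53.6 ± 11.98. The interleukin-7 receptor Il7r had 0 to 0.152 CPM.

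Oxidase, folding and cell cycle genes had median per-length levels above that of all named genes (2.47). The 6 subunit genes of the phagocyte NADPH oxidase summed to 5684 ± 351 CPM, with Cyba at 2872 ± 205 per length, the small GTPase Rac2 at 1471 ± 180 and Ncf4 at 1079 ± 57.1. The 19 genes of endoplasmic reticulum translocation and folding summed to 11053, 8124, 9820 and 10910 CPM. Among them P4hb had 1460 ± 101 per length, the chaperone Hspa5 (BiP) 1093 ± 239 and the disulfide isomerase Pdia3 1085 ± 171. All 23 genes of DNA replication and mitosis reached 10 CPM, against 40.8% of all named genes. Their sum was close to even at 9258, 9193, 8724 and 9316 CPM. Rrm2, a subunit of ribonucleotide reductase, led this list with 1525 ± 102 per length, followed by the mitotic cyclin Ccnb2 (683 ± 101) and the helicase subunit Mcm6 (555 ± 46.2). The median per-length level was 189 for these 23 genes, 283 for the 19 folding genes and 894 for the 6 oxidase genes.

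Of the 18790 named genes, 2799 (14.9%) had no count in any of the 4 libraries, and 10746 had a count in all 4. Over the 4 libraries together, no count allows a mean of up to 0.0182 CPM by the floor of 3 counts. Among receptors and structural proteins of unrelated tissues, 239 of 433 olfactory receptors (55.2%), 76 of 127 vomeronasal receptors (59.8%), 18 of 28 keratins (64.3%), 8 of 11 beta defensins (72.7%) and 6 of 11 crystallins (54.5%) had no count. In the primary granule, secondary granule, eosinophil, monocyte, resident macrophage and erythroid lists, each measured gene had a count in at least 1 library. In the other lineage lists the genes without a count were Il1b (a cytokine), Tpsb2, the osteoclast fusion gene Ocstamp, the chemokine receptor Ccr9 and Klk1 (plasmacytoid dendritic cell list), Vpreb2 (surrogate light chain), Cd8b1 (T cell co-receptor), Pdgfra (stromal growth factor receptor) and Kdr (endothelial growth factor receptor). The early response gene Fosb and the inducible chaperone Hspa1a had none either.

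Detection was often patchy at low levels. Counts were present in exactly 1 library for 2540 genes, and in 1523 of these (60.0%) that library held at least 10 counts. Marco, a scavenger receptor of macrophages, had 346 counts in replicate 3 and none in the other 3 libraries. Itga9, an integrin chain, had 309 counts in replicate 1 alone, and Nphp4, a gene of cilia, 286 in replicate 2 alone. These 3 were picked from the genes with the largest such counts after their values were seen. Replicate 3, the deepest library, held 946 of the 2540 genes, and the others held 437 to 591 each.

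Spread between the 4 libraries was far above counting error. Over the 7669 genes with a mean of at least 10 CPM, the median SD of log2(CPM + 1) was 0.30, against 0.033 from counting alone, and 7655 genes lay above their own counting error. A range of at least 2-fold between the highest and the lowest library on CPM + 1 was seen for 1877 genes (24.5%). Leaving out replicate 1, 2, 3 or 4 gave counts of 1343, 1233, 1361 and 1109. A gene's range cannot grow when a library is left out, so lower counts follow in part from that. The share fell with level, from 52.3% of the genes between 10 and 20 CPM to 5.05% of those between 100 and 500 CPM, and was 5.91% for the 237 genes of 500 CPM and above.

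The 20 named genes with the largest SD were of low level, with means of 11.1 to 43.0 CPM. Olfml2b, an extracellular matrix protein, was first with 73.3, 3.78, 33.9 and 0 CPM. Mpeg1, the perforin-like protein of macrophages and a member of the monocyte list, had 42.7 CPM in replicate 2 and 1.45 to 2.65 in the others. Zbtb38, a zinc finger protein that binds methylated DNA, had 0.345 CPM in replicate 4 and 19.8 to 22.4 in the others. Of these 20 genes, 11 had a library under 1 CPM, against 13 of all 7669 genes. A ranking by SD picks such genes, so this follows from the choice of the 20. The others were Wdr47, Lss, Zfp719, Zfp41, Cldn12, Enpp1, Focad, Prdm15, Slc39a10, Tle1, Bzrap1, Zfp821, Tmem87b, B3glct, Cdk5rap1, Zfp46 and Vmac, and no list of lineage genes holds one of these 17.

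Genes of at least 100 CPM were ranked apart. The first set had means of at most 43.0 CPM, so none of its genes could be among these 20. Pttg1, securin, which holds sister chromatids together until anaphase, was first with 251, 220, 33.9 and 246 CPM, low in replicate 3 alone. Hemgn, a nuclear protein of blood progenitors, stood at 246, 70.6, 48.1 and 116 CPM. Ctse, cathepsin E, stood at 239, 97.7, 69.7 and 202 CPM, so that replicates 1 and 4 were high for both. Sorl1, a sorting receptor, stood at 295, 445, 224 and 119 CPM. Lineage genes among these 20 were Mcpt8 and Prss34 of the basophil list, Ear1, Ear6 and Alox15 of the eosinophil list and the transferrin receptor Tfrc (151, 119, 45.6 and 129 CPM) of the erythroid list. The remaining 10 were Kmt2d, Ppm1h, Zfp367, Tbc1d10b, Arhgef39, Cd300lb, Xdh, Poldip3, Rbm5 and Atp2a3. The steadiest genes of at least 100 CPM were Cox4i1, a subunit of cytochrome c oxidase, at 458 to 464 CPM, the ubiquitin ligase Stub1 at 153 to 156 and the GTPase Rhoa at 107 to 109, then Ergic3 and Ikbkb. All of these but Ikbkb varied by less than their counting error.

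**Figure D4:**
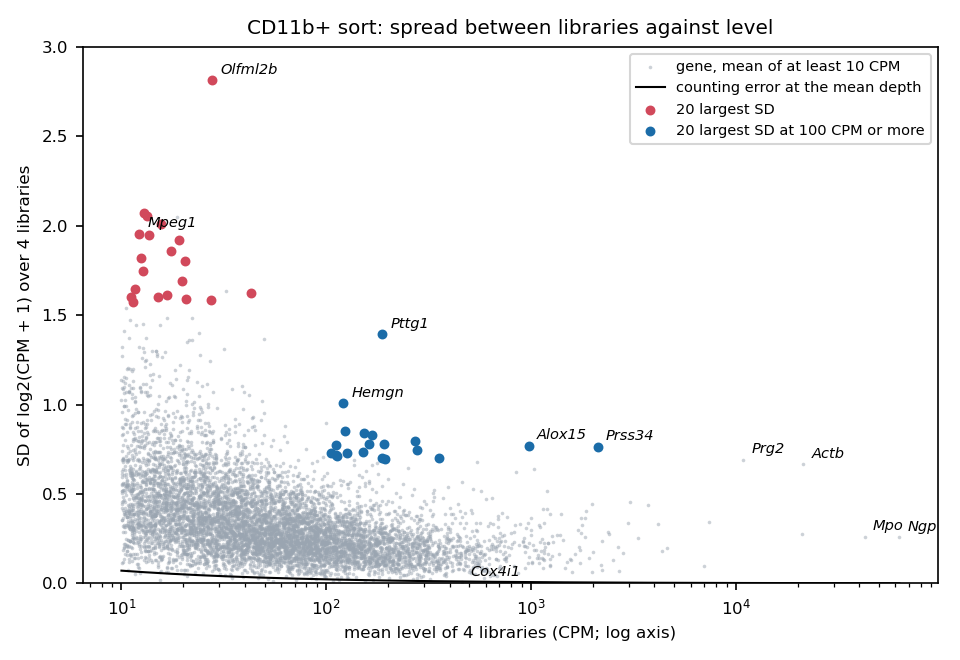
SD of log2(CPM + 1) over the 4 CD11b+ libraries against mean CPM (log axis) for 7669 genes, with the 20 most variable named genes in red, the 20 most variable at 100 CPM or more in blue and counting error as a line. Red points lie between 11.1 and 43.0 CPM, and Prg2 (SD 0.69) and Actb (0.67) lie above Mpo and Ngp (0.26 each).

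With 4 libraries no correlation was computed, and genes that vary together were described by the library in which each is highest or lowest. Replicate 4 was the highest library for 9 of 9 primary granule genes of at least 10 CPM, against 31.1% of all such genes, and for 5 of 7 basophil and mast cell genes and 6 of 9 monocyte genes. Replicate 2 or 3 was the highest for 10 of 11 secondary granule genes, against 46.8% of all. The exception was Olfm4, with 23.2, 51.4, 42.3 and 52.0 CPM. The summed primary over secondary granule level was 1.0045, 0.640, 0.694 and 1.31 in replicates 1 to 4. Against 24.5% of all such genes, none of the 9 primary granule genes varied 2-fold, and of the 11 secondary granule genes Olfm4 did. That share was 5.05% for genes between 100 and 500 CPM and 5.91% at 500 CPM and above. Among late neutrophil genes 6 of 10 varied 2-fold, with replicate 3 the highest library for 6 of 10, against 23.1% of all.

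Eosinophil genes moved over a wider range. Replicate 2 was the lowest library for 9 of 10 genes of at least 10 CPM, against 27.4% of all such genes, the exception being Ccr3. Replicate 3 was the highest for 8 of 10, against 23.1% of all, and 8 of 10 varied at least 2-fold, against 24.5% of all. The summed eosinophil over secondary granule level was 0.226, 0.0791, 0.248 and 0.233. Replicate 2 was also the lowest library for 5 of 7 basophil and mast cell genes and for 15 of 19 genes of endoplasmic reticulum folding. None of these 19 varied 2-fold, against 24.5% of all. That share was 5.05% for genes between 100 and 500 CPM and 5.91% at 500 CPM and above. Hspa5 stood at 1947, 1174, 1819 and 2029 CPM. In RefSeq's GRCm38.p6 gene order, Mpo and Epx lie on chromosome 11 with Lpo and Mks1 between them, and they differed in their highest library, replicate 4 for Mpo and replicate 3 for Epx. Mcpt8 and Ctsg, also of different lists, lie on chromosome 14 with 1 gene model between them and were both highest in replicate 4. Prtn3 and Elane, which adjoin on chromosome 10, were both highest in replicate 4, and Prg2 and Prg3, with 1 gene model between them on chromosome 2, were both highest in replicate 3.

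Erythroid genes followed yet another order. Replicate 2 or 3 was the lowest library for 13 of 13 genes of at least 10 CPM, against 49.2% of all, and 7 of 13 varied 2-fold, against 24.5%. The highest library was also replicate 2 or 3 for 4 of the 13, against 46.8% of all, with Alas2 and Slc4a1 among them. Car1, carbonic anhydrase 1, stood at 42.7, 5.63, 8.38 and 38.8 CPM. Klf1 stood at 79.5, 20.3, 16.3 and 51.1 CPM, and Kel, the Kell blood group protein, at 26.0, 3.98, 5.02 and 24.0 CPM. Replicates 1 and 4 were the 2 highest libraries for these 3 genes, as for Hemgn and Ctse. Slc4a1, the band 3 anion exchanger, did not share this: replicates 1 and 2 were its 2 highest, with 85.6, 96.5, 48.0 and 55.7 CPM. 

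**Figure D5:**
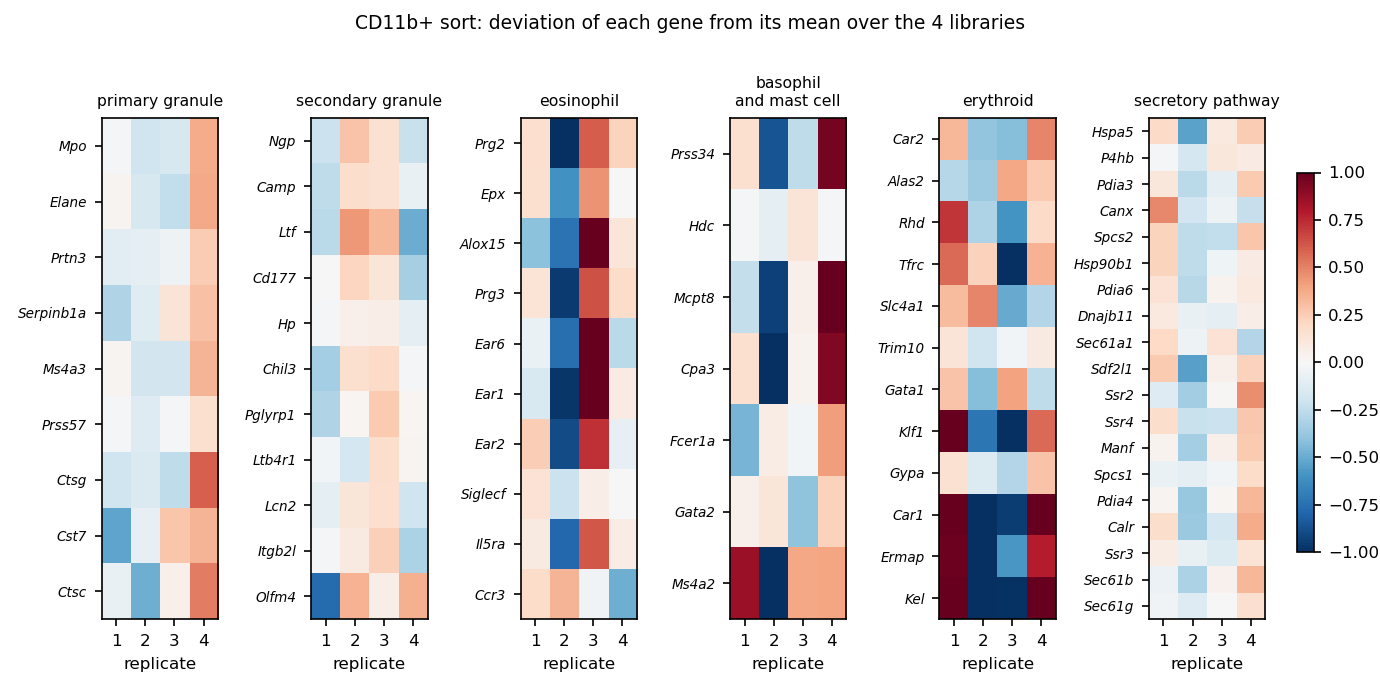
Deviation of log2(CPM + 1) from each gene's mean over the 4 CD11b+ libraries (colour, ends at 1 either way) for genes of at least 10 CPM in 6 lists, ordered by mean CPM, with 1 erythroid gene not drawn. Primary granule genes are highest in replicate 4, eosinophil genes are lowest in replicate 2 apart from Ccr3, and Car1, Ermap and Kel are high in replicates 1 and 4.

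Nearness of profile was measured as the root mean square difference between centred log2 profiles over the 4 libraries, among 7668 other genes. The nearest gene to Prg2 was Prg3 (0.032), followed by Ccdc132, Pomt1, Mfsd8 and Strada. The eosinophil genes Prg3, Epx, Ear2 and Il5ra were within the 100 nearest to Prg2, and the median place of the 9 others on the list was 145. The nearest gene to Mpo was Tm2d1 (0.019), and Elane and Ms4a3 were within its first 100, with a median place of 726.5 for the list. Near Prss34, Mcpt8 and Cpa3 were within the first 100, at a median place of 2850.5. The gene nearest to Mmp9 was Il5ra (0.011), and Retnlg of its own list was within its first 100, with a median place of 3507 for the list. No gene of their own lists was within the first 100 of Ngp, F13a1, Vcam1, C1qa or Car2, and the median places ran from 634.5 for Ngp to 5285 for C1qa. The nearest to each were Saysd1, Mtf2, Ctdspl2, Tmem131 and Nop14. Median places beyond the middle of the 7668 were those for Vcam1 (4544), Car2 (4921) and C1qa. Those for Mmp9 and F13a1 (3696) lay near the middle. The measure takes in the size of a gene's changes as well as their direction. Steady genes such as Vcam1 (SD of log2(CPM + 1) 0.137) and F13a1 (0.204) therefore lie near other steady genes. A far place does not by itself mean that genes were highest or lowest in different libraries. With 4 values a gene, these places are a description.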

How the data were processed

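RNA-seq profiles of 4 CD11b+ sorts were used, and the 4 CD11b- columns were not. The authors deposited 1 file of gene counts a library. Its name gives another unit, but its values are whole numbers that sum to a different total in each library. They also deposited a matrix of CPM (counts scaled to the library's total), which the counts reproduce within 0.0005 CPM. The submitters' processing notes list TopHat2, HTSeq 0.10.0, DESeq2 and build mm9, with no role or order. How the counting used strand is not given in the sources used here, so overlapping genes, and genes with near-identical copies such as ribosomal protein genes, are uncertain.

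From the counts, 27 rows named by a number were left out (0.205% to 0.238% of counts). CPM was computed over the 18790 named genes. Levels per length used the union of exons in GENCODE M21, found for 18586 symbols (98.9%), for lengths only. Scaling factors and dispersions for the alternatives came from edgeR 4.0.16 (R 4.3.3), and the rest from Python 3.11.15. Sets were described by counts, means and SDs, with no test. The spread functions were tested on simulated data. Replicate SDs measure the spread between these samples.

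Members and lists were chosen with earlier results of these data known. Named genes were those of the sort, the 20 with the largest share of counts and per-length level, the 3 highest of each list, list members without a count, the 20 most and 5 least variable, and the 5 nearest in profile to an index gene of each lineage. Models named only by number (Gm, Rik) were passed over. Values of other list members are given as well. Globins and other genes with hyphenated symbols are not analysed here, and some list members are not reported here by name. Alternatives covered scaling, filters, pseudocount, gene length, detection threshold, depth and each library left out.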

Additional observations from a re-analysis of the deposited data

Results flagged for a closer look

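For 220 values the library at an end was compared with the other 3. In 19 its gap to the nearest of the others, over the whole range of the 4, was above Dixon's 95% critical value for 4 samples. Chance gives about 1 in 20 for a group chosen without its values. The 220 include genes chosen for a large or small SD or for a shared profile over these 4 libraries, and sums led by a gene that is also counted alone, so neither the 19 nor their split by library can be set against that share. Of the 19, 8 fell on replicate 2, 6 on replicate 3, 4 on replicate 4 and 1 on replicate 1.

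Replicate 2 stood apart in the share of its 10 most abundant genes, 19.2% against 18.3% to 18.5%. Xbp1, a factor of secretory cells, had 419 CPM there against 546 to 563, and the plasma cell list that it leads summed to 444 against 594 to 614 CPM. Mpeg1 had 42.7 CPM against 1.45 to 2.65. Enpp1, a phosphodiesterase, had 0.406 CPM against 15.1 to 17.8. Mtf2 (32.1 CPM), the oligosaccharyltransferase subunit Magt1 (53.3) and the mitotic kinesin Kif4 (87.8) were lowest in replicate 2.

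Replicate 4 held the highest levels of Nkg7, with 1509 CPM against 1100 to 1112, and of the primary granule protease Prtn3, with 2376 against 1846 to 1914. The natural killer list, which Nkg7 leads, summed to 1557 CPM. Zbtb38 had 0.345 CPM there against 19.8 to 22.4.

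Replicate 3 was the highest for the sums of mature B cell genes (54.8 CPM), vomeronasal receptors (13.7) and interleukins (288). Pttg1 had 33.9 CPM there against 220 to 251, and Focad 1.30 against 24.8 to 28.5. The steady genes Cox4i1 (464 CPM in replicate 3 against 458 to 459) and Stub1 (153 in replicate 1 against 155 to 156) stood apart by a few CPM. Their SDs of log2(CPM + 1), 0.0090 and 0.012, lie below their counting errors of 0.011 and 0.018.

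Rows named by a number, left out of all values above, held 0.223% of counts, above the floor of 3 counts in each library.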

How the results depend on the processing

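Of 530 values recomputed under other settings, 457 stayed within 1 SD or, for a count, within 1.5 times. A mean of 4 libraries cannot move by 1 SD when 1 is left out, so those values were bound to stay. They are among the 457 and say nothing on how steady the results are. The 10 leading genes held 34.8% of the per-length total. With 10 counts needed for detection, 4218 genes had none. Genes that varied 2-fold numbered 4420 at a mean of 1 CPM, 321 at 50 CPM and 5822 with no filter, and 1109 to 1361 with a library left out. Of the 20 most variable genes, 10 were shared with totals that leave out the 20 most abundant genes, 7 at 1 CPM, 7 with no filter, 7 by coefficient of variation, 0 at 50 CPM, 0 at 100 CPM (added after seeing the data) and 9 to 16 with a library left out. The results at 50 and 100 CPM were fixed in advance, because these 20 genes had means of at most 43.0 CPM. Totals without the 20 most abundant genes moved the median gene by up to 0.353 on the log2 scale, and gave list sums of 87016 (primary granule), 99545 (secondary granule), 10365 (late neutrophil), 868 (monocyte), 2563 (resident macrophage) and 1438 CPM (erythroid). Without their most abundant member, the sums were 25948 (primary granule), 15481 (secondary granule), 4428 (late neutrophil), 4048 (eosinophil), 737 (basophil and mast cell), 344 (monocyte), 1306 (resident macrophage) and 761 CPM (erythroid). The 8 counts of list genes highest or lowest in the same library stayed within 1.5 times under 4 other scalings, chosen after seeing the data, and cannot be recomputed with a library left out. No paired analysis was possible because no test was made. Levels near the floor of 3 counts limit detection, and genes below 10 CPM were left out of the spread.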

Other observations

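Ribosomal protein genes took few counts. The 80 genes summed to 5610, 5230, 5733 and 7005 CPM, or 0.589% ± 0.0771 of counts. Of the 80, 52 (65%) reached 10 CPM, against 40.8% of all named genes. Rpl4 had 891 to 1214 CPM, Rplp0 467 to 638 and Rps3 434 to 575, and the median per-length level was 26.7. Replicate 4 was the highest library for 42 of the 52, against 31.1% of all genes of at least 10 CPM. These genes have many near-identical processed copies among which reads may be split, and the part of this in their level was not tested.

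Few genes of secreted signals passed 10 CPM. Of 28 chemokine ligands 3 (10.7%) reached it, against 40.8% of all named genes, led by Ccl6 (158, 114, 142 and 172 CPM) and the T cell chemokine Ccl5 (17.7, 16.3, 43.6 and 24.96 CPM). Of 20 interleukins 2 reached it. Il16 had 194 to 256 CPM and Il12a 6.76 to 16.4 CPM, and Il4, a basophil cytokine, had 1.62 to 6.77. Of 14 early response genes 5 (35.7%) reached 10 CPM, near the share of all. Ier2 had 137, 162, 168 and 197 CPM, Btg2 109 to 196 and Junb 30.5 to 47.3. Egr1 had 2 counts in replicate 1 and none in the other 3 libraries, Fos 0 to 6.65 CPM and Jun 2.15 CPM in replicate 3 alone. Of 12 interferon-stimulated genes 5 (41.7%) reached 10 CPM, about the share of all, with Irf7 at 24.96 to 41.8 and Rsad2 at 23.8 to 38.7. Of 19 Hox genes, Hoxa9 had 2.57 to 9.68 CPM and 10 (52.6%) had no count, against 14.9% of all named genes. One keratin, Krt18, stood out from its family with 22.7, 17.7, 38.0 and 36.9 CPM.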
